A study of Mus musculus with 2 samples.

Results

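The 9 genes described here are classical markers of the B cell lineage: Cd79a, Cd79b, Pax5, Ms4a1, Ebf1, Cd22, Cr2, Bank1 and Fcer2a. Their chromatin was read in lymphoid tissue inducer (LTi) cells, innate lymphocytes that are not B cells. The genes were given by name, and an island (a stretch of clustered reads) was assigned to a gene when it overlapped the RefSeq gene body or the 10 kb on either side by at least 1 bp. This gave 18 of the 19531 islands in the table, and 9 of the 21887 protein-coding genes. In the assay, ChIC-seq, an antibody against TCF-1 (the product of Tcf7) guides micrococcal nuclease to chromatin, and the DNA that is released is sequenced. Of the 2 libraries, each from 500 sorted LTi cells of C57BL/6 mice, 1 was Tcf7+/+ from Peyer's patches and 1 was Tcf7fl/fl-VavCre from the small intestine lamina propria. Vav-driven Cre acts in haematopoietic cells at large, so the deletion was not limited to LTi cells. Both sorts took lineage-negative CD127+ CCR6+ cells lacking KLRG1, NK1.1 and NKp46. The ages of the mice, the number pooled and the antibodies of the lineage mix are not stated in the labels.

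Tissue and genotype changed together and each had 1 library, so they cannot be told apart and nothing below is a test between conditions. The table gives reads of a peak and a control library, without saying which sample is which, and no direction between genotypes is drawn. In these pooled cells, more cells with a cut locus and more cuts per cell cannot be told apart either. A fold is the peak reads over the control reads times the caller's library scaling factor of 2.00. Folds and false discovery rates (FDR) of single islands are the authors' own values. Intervals are exact 95% binomial intervals and cover counting error only, since PCR copies are not independent molecules. Library depth is unknown beyond the islands, which held 483771 peak and 189291 control reads. All 16 genes listed as markers of LTi cells and of ILC3 (group 3 innate lymphoid cells) had an island in their locus, against 54.7% of all protein-coding genes, as did all 14 genes listed as B lineage transcription factors. This shows where reads lay and not that a gene was expressed.

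B cell fate is set by a small circuit of transcription factors. EBF1 and PAX5 open and maintain the B cell programme, and Cd79a and Cd79b, which encode the signalling chains of the B cell receptor, are among their targets. TCF-1 is an HMG-box factor best known from T cells and innate lymphoid cells, and binds DNA through short sequences with a CTTTG core. B cells are abundant in Peyer's patches.

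Islands lay in 8 of the 9 loci, but in only 4 of the genes themselves. Across all protein-coding genes, 54.7% had an island in the gene or 10 kb of it and 45.7% had one in the gene, so by gene body the share of B cell genes was close to the background. Without the islands that overlap a neighbour gene, 5 of the 9 loci had an island. The share of all protein-coding loci under this rule was not computed. Ebf1 had 5 islands, Cd79a 4, Pax5 3 and Fcer2a 2. Cd79b, Ms4a1, Cd22 and Cr2 had 1 each, and Bank1 had none. Of the 18 islands, 8 overlapped the B cell gene (44.4%, Clopper-Pearson 95% interval 21.5 to 69.2%), 6 overlapped a neighbour gene but not the B cell gene, and 4 lay between genes. Over all pairs of a protein-coding gene and an island of its locus, 64.9% of islands overlapped the gene, 25.8% a neighbour and 9.23% neither. The loci of Cd79b, Cr2 and Fcer2a had neighbour islands alone, and that of Cd22 had an intergenic island alone.

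**Figure D1:**
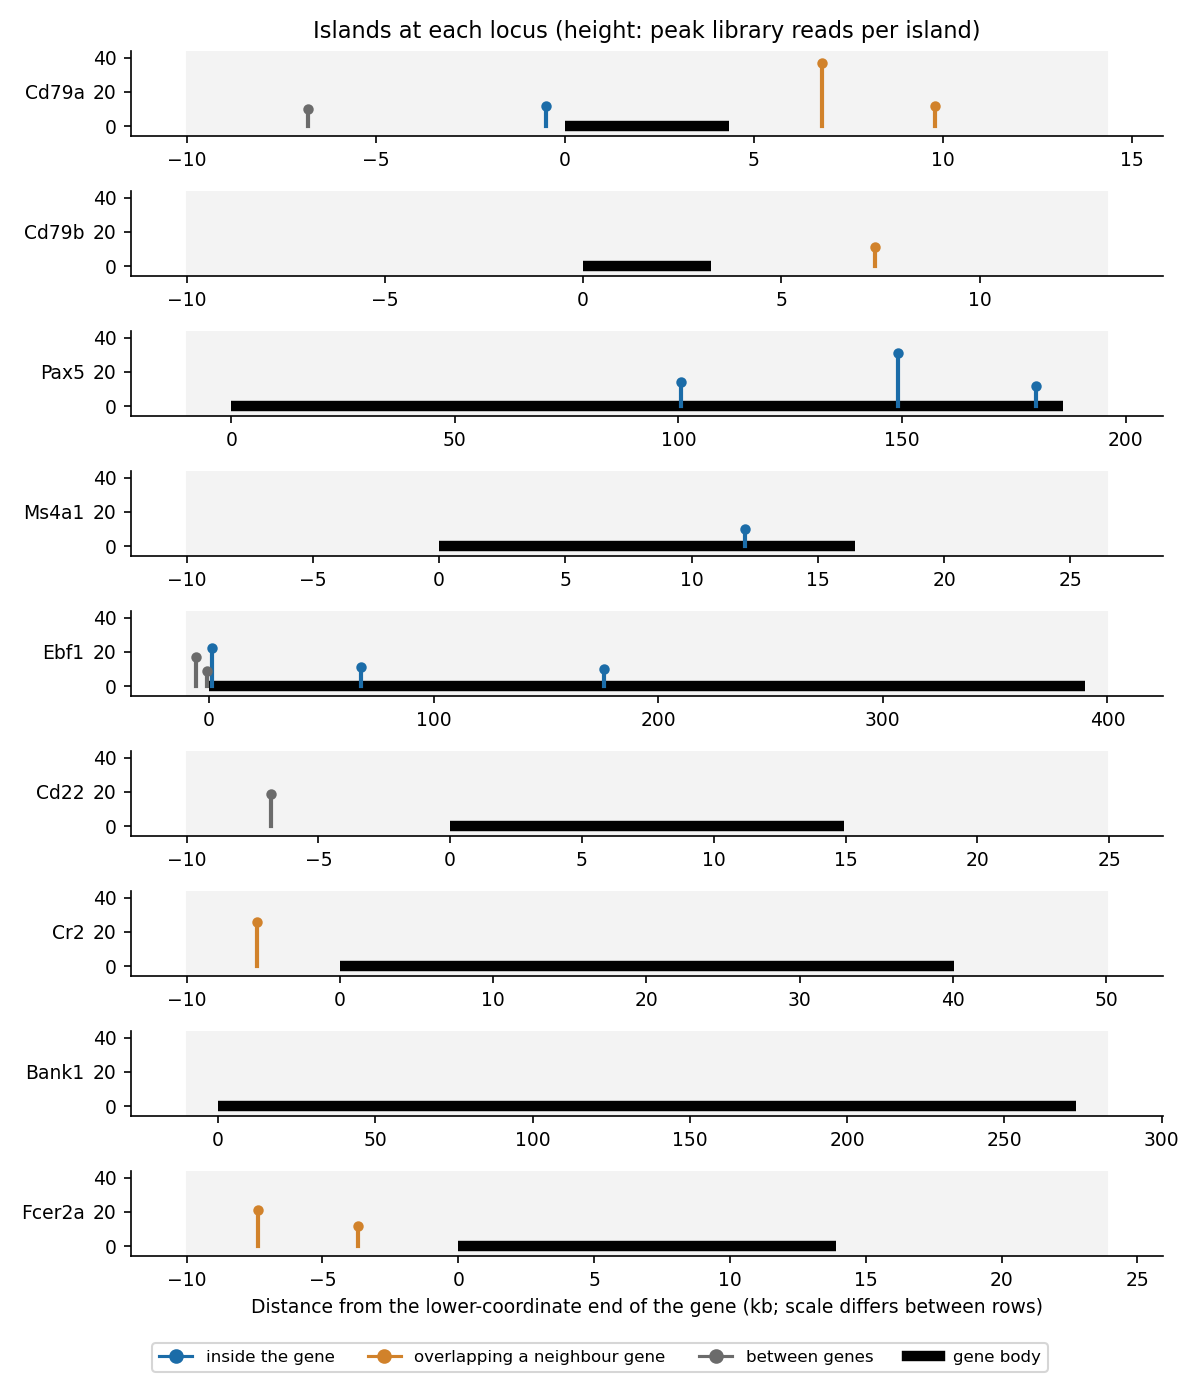
Islands at the 9 loci, by distance from the lower-coordinate end of each gene in kb (horizontal, scale differing between rows); a stem stands at the midpoint of each island with the reads of the peak library as its height, the black bar is the gene and the grey band the locus. Blue stems (8 islands over the B cell gene) occur at Cd79a, Pax5, Ms4a1 and Ebf1 only, orange stems (6) overlap a neighbour and grey stems (4) lie between genes.

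The islands were also set against the starts of the B cell genes. RefSeq promoter entries were found for 7 of the 9 genes, with 10 start sites. Of these sites, 2 lay under an island, against 36.2% of the start sites of protein-coding genes. Because 3 of the 10 sites belong to Fcer2a, this is 2 of 7 by gene. A difference from the share over all genes was not tested. The covered starts were that of Cd79a and the second of the 2 listed for Ebf1. The listed start of Pax5 was 5694 bp from the nearest island, that of Cd22 19428 bp, that of Cr2 44319 bp and that of Bank1 284935 bp. Starts that are not listed could not be considered. The 3 starts of Fcer2a were 13190 to 16974 bp away. By contrast, 4 of the 6 islands in neighbours covered a start of that neighbour: Arhgef1 beside Cd79a, Cr1l beside Cr2, and Fcor and Trappc5 beside Fcer2a. Counting any gene, 6 of the 18 islands (33.3%) covered a start site, close to the 33.2% of all islands.

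For 3 covered starts, the 250 bases before the start are shown because an island lies over each, from RefSeq (GRCm38.p6, the mm10 build), 5′ to 3′ on the gene's strand. Capitals mark matches on either strand to CTTTGAA or CTTTGAT or CTTTGTT or CTTTGTA (TCF), CCCNNGGG (EBF), AGGAAGT (ETS), CAGGTG (an E-box) and ATTTGCAT (the octamer). They lie at chr7:24897247-24897496, plus strand, for Cd79a, at chr11:44619978-44620227, plus strand, for the second Ebf1 start, and at chr8:3672392-3672641, minus strand, for Fcor.
Cd79a: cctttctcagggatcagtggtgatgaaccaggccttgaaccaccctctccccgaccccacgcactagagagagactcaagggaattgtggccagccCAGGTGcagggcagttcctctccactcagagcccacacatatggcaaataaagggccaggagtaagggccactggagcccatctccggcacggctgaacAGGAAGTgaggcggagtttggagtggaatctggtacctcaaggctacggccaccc
Ebf1: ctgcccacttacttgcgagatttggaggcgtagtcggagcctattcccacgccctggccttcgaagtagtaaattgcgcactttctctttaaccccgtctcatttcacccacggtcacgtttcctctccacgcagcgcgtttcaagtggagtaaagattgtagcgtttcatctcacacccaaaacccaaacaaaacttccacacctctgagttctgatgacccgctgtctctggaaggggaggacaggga
Fcor: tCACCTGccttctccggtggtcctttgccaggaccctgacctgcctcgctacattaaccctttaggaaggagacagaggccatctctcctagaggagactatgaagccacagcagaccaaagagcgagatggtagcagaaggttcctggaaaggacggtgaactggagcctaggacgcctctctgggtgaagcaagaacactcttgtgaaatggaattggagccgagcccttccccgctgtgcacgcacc

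The Cd79a window held an ETS match and an E-box match, the Fcor window an E-box match, and the Ebf1 window none of the letters searched. None of the 4 TCF sequences occurred in the windows of the 10 B cell gene starts, or in those of the 4 neighbours' starts that lay under islands. Among 21263 such windows of protein-coding genes, 13.2% held at least 1 of the 4. An E-box match occurred in 5 of the 10 B cell windows (background 16.9%), an EBF match in 2 (13.5%), an ETS match in 1 (7.32%) and the octamer in 0 (1.58%). The EBF matches were at Cd22 and Bank1, whose starts lay under no island. Of the 4 neighbour windows under islands, 1 held an EBF match, at Trappc5, and 1 an E-box match, at Fcor. These matches describe letters in 250 bases and say nothing of binding, and the sequence of the islands themselves was not used here.

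Of the genes of the receptor chains, Cd79a (chromosome 7, 24897497 to 24901858) is 4362 bp long, and its 4 islands summed to 71 peak and 30 control reads, or a pooled fold of 1.19 (0.763 to 1.88). The island over its start, at 24896401 to 24897600, had 12 peak and 8 control reads, a fold of 0.751 (0.282 to 2.12). The start of this B cell receptor gene was thus covered by reads of both libraries without an excess of the peak library. The largest island of the locus, at 24903201 to 24905400, had 37 against 14 reads (1.32, 0.699 to 2.65) and lay over a start of Arhgef1. A second island within Arhgef1 had 12 against 6 reads and a fold of 1.00 (0.348 to 3.25). The intergenic island, 6497 bp from Cd79a on the side of the ribosomal protein gene Rps19, had 10 against 2 reads, a fold of 2.50 (0.534 to 23.5) and the only FDR below 0.05 in the locus, 0.00618. With the table's totals set equal, the pooled fold of Cd79a was 0.926, so even its side of 1 depended on the scaling. Those totals cover all islands, with 483771 peak and 189291 control reads. Of these reads, nuclear islands with fewer than 200 peak reads held 386196 and 119307, so the few other islands weigh on this setting. Totals without those other islands were not tried.

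Cd79b (chromosome 11, 106311341 to 106314562) had no island in the gene. The island in its locus lay 3639 bp away, at 106318201 to 106319200, within Scn4a, which encodes a sodium channel of skeletal muscle. It had 11 peak reads and 1 control read, a fold of 5.51 (0.801 to 237) and an FDR of 6.91e-06. With 1 control read the interval spans 1, and the size of this fold is not resolved at this depth. The 2 chains of the receptor thus differed in where their islands lay, and neither had an island in excess over its own gene.

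The genes of the 2 transcription factors held 6 of the 8 islands inside B cell genes. Pax5 (chromosome 4, 44524748 to 44710694, minus strand) is 185947 bp long and had 3 islands, all inside the gene. Their summed reads were 57 against 16, which pooled to a fold of 1.78 (1.01 to 3.33). The island at 44624801 to 44625800 had 14 peak reads and 0 control reads. Set against a floor of 3 control reads in the island, the 14 reads stood 2.34-fold higher. The lower end of the exact interval of this island, in which the 14 reads too carry counting error, was 1.66. Its FDR was 1.03e-15, the lowest of the 18, and it lay 84894 bp downstream of the listed start. It was 1 of 1112 islands without a control read (5.69% of all). The other Pax5 islands had 31 against 12 reads (1.29, 0.646 to 2.77), at 44672201 to 44675400, and 12 against 4 (1.50, 0.455 to 6.39), at 44704401 to 44705000. The last one, 5694 bp from the listed start, also overlapped the noncoding RNA gene 5730488B01Rik. Without the 14-read island, Pax5 would stand on 2 islands whose intervals both include 1.

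Ebf1 (chromosome 11, 44618100 to 45008096, plus strand) is 389997 bp long and had 5 islands. They summed to 69 against 21 reads, or a pooled fold of 1.65 (0.997 to 2.82). Of the islands, 3 clustered around its starts. The one at 44618601 to 44620600, inside the gene and over the second start, had 22 against 4 reads, a fold of 2.75 (0.935 to 11.0) and an FDR of 4.46e-05. The 2 intergenic islands on the other side of the first start had 9 against 4 reads at 300 bp (1.13, 0.314 to 5.01) and 17 against 9 at 4700 bp (0.946, 0.399 to 2.41). Of these 3 islands the one just inside the gene had the highest fold. All 3 intervals include 1 and overlap, so the islands are not told apart. Farther in, the island at 44685401 to 44686400, 65173 bp from the nearest start, had 11 reads against 1 (5.51, 0.801 to 237) and an FDR of 6.91e-06. The island at 44793601 to 44794400, 173373 bp in, had 10 against 3 (1.67, 0.430 to 9.44). No island lay in the rest of the gene.

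Among the surface molecules, only Ms4a1 had an island in the gene. Ms4a1 (chromosome 19, 11249679 to 11266149) encodes CD20, and its island at 11261201 to 11262400 had 10 against 3 reads, a fold of 1.67 (0.430 to 9.44) and an FDR of 0.0648. It also overlaps the noncoding RNA gene 4930526L06Rik, which spans all of Ms4a1, so the reads cannot be assigned to either. Cd22 (chromosome 7, 30865404 to 30880342, minus strand), an inhibitory sialic acid-binding receptor, had 1 island at 30857601 to 30859600, 5804 bp beyond its 3′ end and between the fatty acid receptor genes Ffar3 and Ffar1. It had 19 against 3 reads, a fold of 3.17 (0.934 to 16.7) and an FDR of 2.27e-05. It was 1423 bp from the start of Ffar3 and 19428 bp from that of Cd22.

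Cr2 (chromosome 1, 195136811 to 195176880, minus strand) encodes complement receptors CD21 and CD35. Its island at 195130401 to 195132400 had 26 against 8 reads, a fold of 1.63 (0.716 to 4.16) and an FDR of 0.0143. That island covered the start of Cr1l, which encodes the complement regulator Crry, and the noncoding RNA gene Gm32313, and lay 44319 bp from the listed start of Cr2. Fcer2a (chromosome 8, 3680280 to 3694174, minus strand) encodes the low-affinity IgE receptor CD23. Its 2 islands had 33 against 6 reads, a pooled fold of 2.75 (1.14 to 8.04), an interval that includes 1.62, the pooled fold of nuclear islands under 200 peak reads. The island at 3671601 to 3674200 had 21 against 3 reads (3.51, 1.05 to 18.4) and covered the start of Fcor, and that at 3676001 to 3677200 had 12 against 3 (2.00, 0.541 to 11.1) and covered the start of Trappc5, a trafficking complex gene. Both lay beyond the 3′ end of Fcer2a, so the fold of this locus was measured entirely over other genes. With the table's totals set equal, the pooled fold was 2.15 (0.890 to 6.28) at Fcer2a and 1.39 (0.789 to 2.60) at Pax5.

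Bank1 (chromosome 3, 136053363 to 136326141, minus strand), a scaffold protein of B cell receptor signalling, had no island in 272779 bp of gene or its flanks. The nearest islands were 225163 bp and 284860 bp away. Of the 804 protein-coding genes with loci of 250 kb or more, 45.4% had an island, so a locus of this length without one was common. The table lists called islands only, so reads below the calling threshold at Bank1 are not known.

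**Figure D2:**
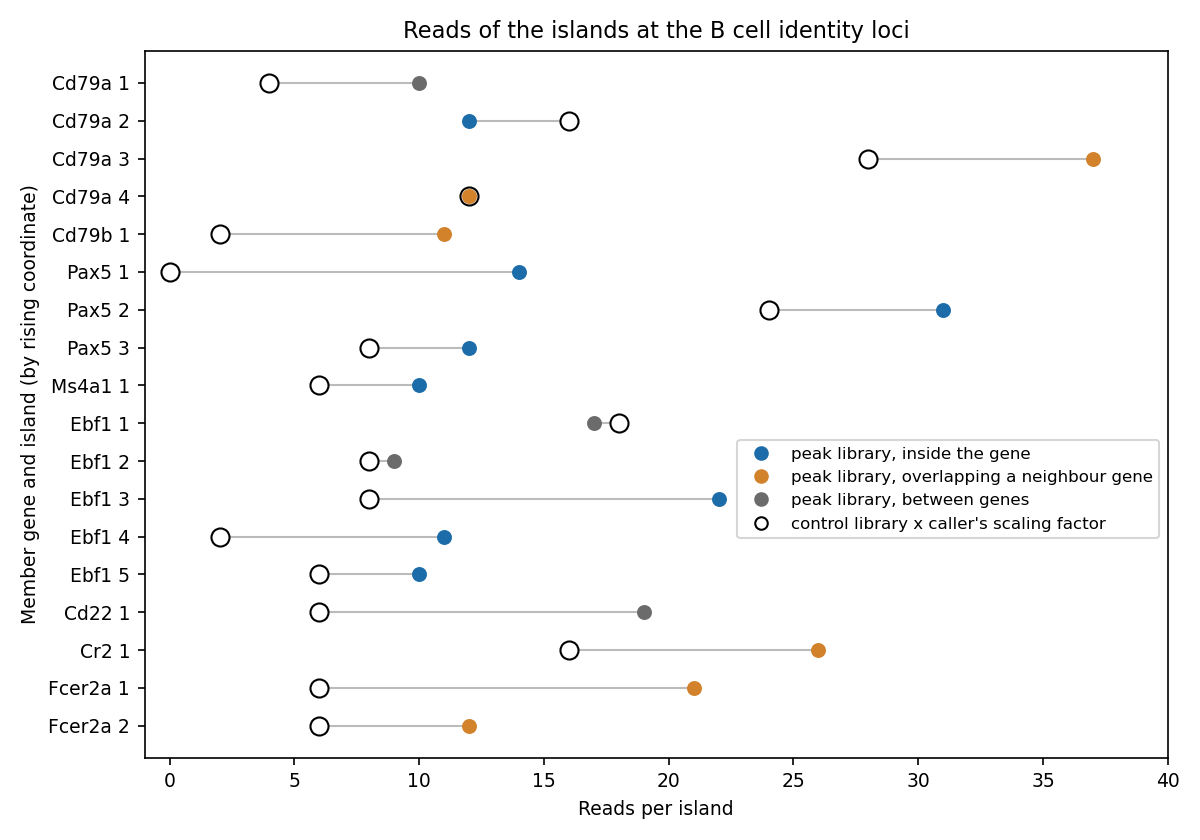
Reads per island (horizontal) for the 18 islands, numbered within each gene by rising coordinate; filled points are peak library reads coloured by position and open circles are control library reads times the scaling factor of 2.00. The filled point lies left of the open circle at the second Cd79a island (12 against 8 unscaled reads) and the first Ebf1 island (17 against 9), and the first Pax5 island (14 against 0) is the one without a control read.

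Read depth was low throughout. The 18 islands had 9 to 37 peak reads (median 12) and 0 to 14 control reads (median 3.5), compared with medians of 16 and 4 over all islands. Islands were called from peak library reads, so a fold above 1 is built into their selection. The reference here is therefore not 1 but the 19513 nuclear islands with fewer than 200 peak reads, as all 18 islands are of this kind. Pooled, 296 against 88 reads gave a fold of 1.68 (1.32 to 2.16), which includes the 1.62 (1.61 to 1.63) of that reference. With mitochondrial islands and those of 200 or more peak reads added, all 19531 islands pooled to 1.28 (1.27 to 1.29), below that interval. The median fold was 1.67 against 1.84 over all islands. Folds below 1 occurred in 2 of the 18 islands, against 10.2% of all. By position, the islands over B cell genes had a pooled fold of 1.75 (1.19 to 2.62), those over neighbours 1.70 (1.16 to 2.56) and those between genes 1.53 (0.885 to 2.77). These intervals overlap broadly, and no position stood apart.

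By the authors' deposited FDR, 9 of the 18 islands passed 0.05, against 62.5% of all islands, and 4 passed 1e-05, against 20.7%. The 4 lay at Pax5, Ebf1, Cd79b and Fcer2a, and only the first 2 were inside the B cell gene. Inside B cell genes, 3 of 8 islands passed 0.05 (1 at Pax5 and 2 at Ebf1). The caller's test takes the control reads as known without error. A binomial test conditional on the sum of both counts (exact, one-sided, adjusted by Benjamini-Hochberg over all islands) passed 0 of the 18, against 84 of all islands (0.430%). By this exact test 4 of the 18 islands had an unadjusted p below 0.05, near the 24.1% of all islands that did: the 14-read Pax5 island (p = 0.00340, adjusted p = 0.0926), the Fcor island at Fcer2a (adjusted p = 0.142), and the Cd22 island and the Ebf1 island over its second start (adjusted p = 0.179 each). This test compares 2 libraries and not 2 conditions.

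**Figure D3:**
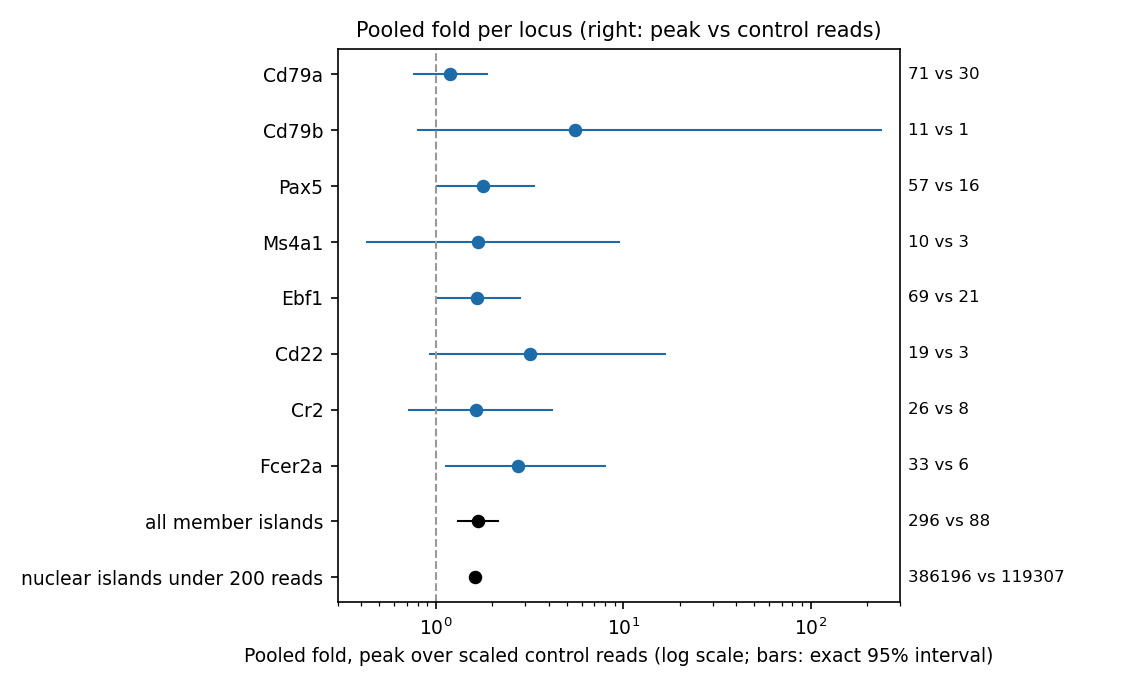
Pooled fold of peak over scaled control reads per locus (horizontal, log scale) with exact 95% intervals and the unscaled reads at the right; Bank1 has no island and is not drawn. The intervals of all 8 loci, from Cd79a (0.763 to 1.88) to Fcer2a (1.14 to 8.04), include the 1.62 of the nuclear islands with fewer than 200 peak reads, and all member islands together lie at 1.68.

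Locus length varied widely, from 23.2 kb at Cd79b to 410.0 kb at Ebf1. Over the 9 loci there were 1.60 islands per 100 kb, against 1.67 over all protein-coding loci. Within the gene bodies there were 0.850 islands per 100 kb, against 1.54. Long genes had fewer islands per length in general, with 0.327 per 100 kb of locus at 250 kb or more, 1.21 at 100 to 250 kb and 3.10 under 30 kb. Set against its own length class, Cd79a had 4 islands where 2.71% of loci under 30 kb had as many, but 2 of them were those of Arhgef1. Ebf1 had 5 where 11.8% of loci of 250 kb or more had as many, and Pax5 had 3 where 24.9% had as many. For Fcer2a the share was 31.5%, for Cd79b 41.2%, for Ms4a1 and Cd22 62.5% and for Cr2 65.3%. At each locus other than Cd79a, 11.8% or more of the length class thus had as many islands. No threshold for an uncommon number was set.

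**Figure D4:**
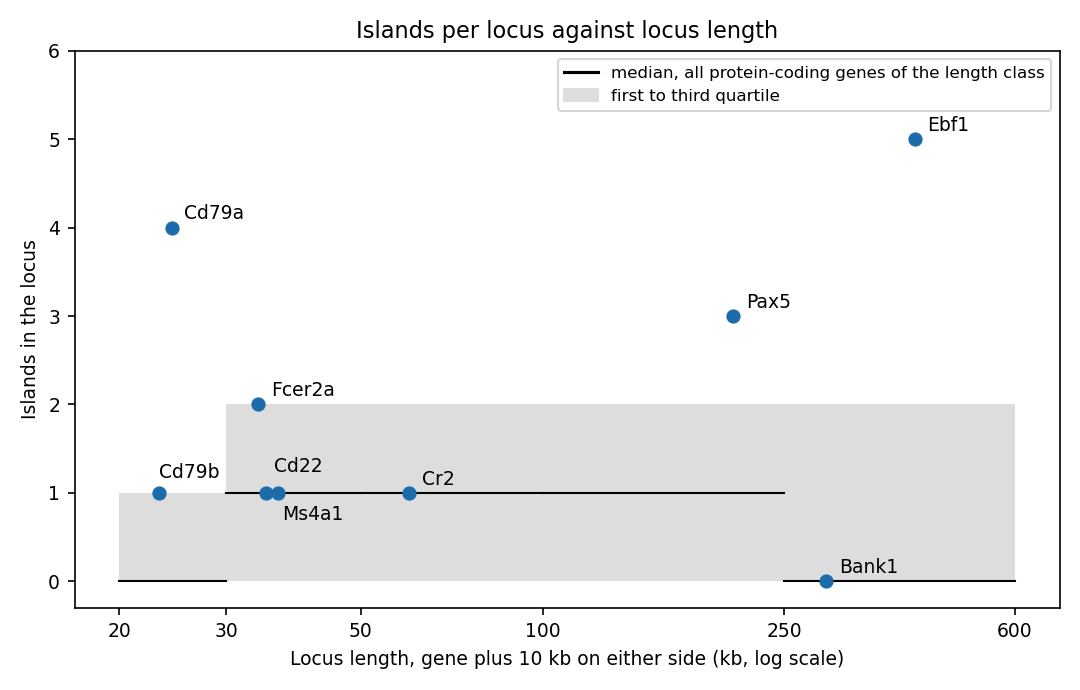
Islands per locus (vertical) against locus length in kb (horizontal, log scale) for the 9 B cell genes, with the median (black line) and quartiles (grey) of all protein-coding genes in 5 length classes. Cd79a (4 islands), Pax5 (3) and Ebf1 (5) lie above the third quartile of their class, and Bank1 (0) lies on the median of its class.

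Other genes of the B cell lineage extended the comparison. None of their islands was shared with those of the 9 genes. Of 22 further surface and receptor signalling genes 16 had an island, with 52 islands and a pooled fold of 1.77 (1.54 to 2.03). Pik3ap1, an adaptor of phosphoinositide 3-kinase, had the most peak reads (231 against 74, 1.56, 1.20 to 2.06), followed by the phospholipase gene Plcg2 (125 against 26, 2.41, 1.57 to 3.83) and the adaptor gene Dapp1 (111 against 32, 1.74, 1.16 to 2.66). Blnk and Fcrla had no island. All 14 B lineage transcription factor genes had one, with 61 islands and a pooled fold of 1.48 (1.33 to 1.65). Ets1 had 344 against 136 reads (1.27, 1.04 to 1.56), Ikzf3 309 against 108 (1.43, 1.15 to 1.80) and Bach2 163 against 54 (1.51, 1.10 to 2.10). Several of these factors, such as Ets1 and Bach2, also act in T cells. Of 11 early B cell and plasma cell genes 8 had an island, with 11 islands and a pooled fold of 2.23 (1.60 to 3.15). Prdm1, which encodes Blimp-1, accounted for 116 of the 200 peak reads (against 24, 2.42, 1.55 to 3.93), Xbp1 had 30 against 12 (1.25, 0.622 to 2.69) and Rag1 had 15 against 1 (7.51, 1.16 to 316), in an island it shares with Rag2. Dntt and Jchain had none.

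Per 100 kb of locus, the 9 B cell genes had 1.60 islands, fewer than the further B cell surface genes (3.74), the B lineage factors (4.30), the early B and plasma cell genes (3.17), the T cell (3.98), myeloid (2.37) and NK cell and ILC1 genes (2.31), and more than the epithelial genes (0.610). T cell genes had islands at 10 of 12 loci and a pooled fold of 1.58 (1.33 to 1.89), NK cell and ILC1 genes at 7 of 12 with 2.07 (1.47 to 2.98), myeloid genes at 5 of 11 with 1.26 (0.990 to 1.62), and epithelial genes at 3 of 8 with 2.69 (1.25 to 6.63). LTi and ILC3 genes stood at 16 of 16 loci, 6.07 islands per 100 kb and a pooled fold of 2.21 (2.00 to 2.45). The fold interval of the 9 B cell genes (1.32 to 2.16) overlaps that of each of these lists, and differences between the lists were not tested. The densities were not adjusted for locus length, and long loci had fewer islands per length in general. Most of the 1121.7 kb of the 9 loci lay at Ebf1 (410 kb), Bank1 (293 kb) and Pax5 (206 kb), so the rank of the 9 genes cannot be told apart from their length.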

How the data were processed

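The submitters' processing notes name Bowtie2 2.4.2, the build mm10 and SICER 2.0; caller settings and the treatment of duplicates are not stated there. The deposited read counts are whole and unscaled, 1 peak and 1 control value for each island, and these 2 columns name no sample. The fold in the authors' table is a ratio, and its recomputation from the 18419 islands with a control read gave 1 scaling factor, 2.00, throughout. The p-value and FDR per island were deposited by the authors. Positions count from 1.

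Genes and start sites came from RefSeq tables of GRCm38.p6 (the mm10 build); the tables are not complete, and a genome was not used here. The 9 genes and the 9 gene lists were chosen with earlier results of these data known. All 9 genes are named; of the other B cell lists, up to 3 genes with the most peak reads and the first 2 without an island are named. The remaining lists are given as counts only. An island counts as inside a gene if it overlaps it by 1 bp, else as over a neighbour if it overlaps any RefSeq gene, else as between genes. Pooled folds sum reads over islands with fewer than 200 peak reads, except the value over all islands. Intervals are exact (Clopper-Pearson, 95%). The exact binomial test was checked on simulated data. Alternatives changed the flank, overlap, read minimum, FDR, scaling and genes. Python 3.11.15, pandas 2.3.3 and scipy 1.17.1 were used.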

Additional observations from a re-analysis of the deposited data

How the results depend on the processing

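With 1 library per group, no library could be left out, and the low control counts (median 3.5 reads per island) limit every fold. Counts that moved by more than 1.5 times, and values that left their counting interval, were as follows. Without flanks, 4 of the 9 genes kept an island and 3 of 8 islands passed the FDR of 0.05. The share inside the gene was then 100% by construction and the density 0.850 islands per 100 kb. Without islands over a neighbour gene, 5 genes had an island and 5 of 12 islands passed. With at least 20 peak reads, fewer islands were kept, 5 genes had an island, 3 islands passed and the density was 0.446. With 50 kb on either side, 16 islands passed, out of the larger number in the wider span. The share inside the gene was then 23.5% and the pooled fold of Cd79b 1.38, both within their wide intervals. These counts follow the number of islands each setting keeps, and 62.5% of all islands passed. Without flanks, the pooled fold of Cd79a was 0.751, and that of Ebf1 was 2.69, still within its interval (0.997 to 2.82). At an FDR of 1e-05, 4 islands passed, and by the exact binomial test with adjustment 0, with 4 at an unadjusted p below 0.05 (24.1% of all islands). Keeping islands at an FDR of 0.05 or less, which selects high folds, gave a pooled fold of 2.92 and a density of 0.802. The pooled fold was 1.32 with the totals over all islands set equal, a shift of -0.36 (log2) for all folds. Without scaling it was 3.36, and Cd79a then stood at 2.37, Pax5 at 3.56 and Ebf1 at 3.29. Leaving out each gene in turn kept the pooled fold between 1.61 and 1.94, the genes with an island at 7 or 8 and the islands passing at 7 to 9. The density then ranged from 1.28 to 2.17 islands per 100 kb, and was highest without Bank1. No paired analysis was possible because the labels give no replicate numbers and each group has 1 library.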

Other observations

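With 50 kb on either side of the gene, Cd22 had 7 islands in place of 1, with 121 against 29 reads, and 6 of the 7 passed the authors' deposited FDR of 0.05, which 62.5% of all islands passed. Its pooled fold was then 2.09. How many islands other protein-coding loci have over such a span was not counted. Nor was it counted how many of the added islands overlap neighbour genes. Over the same span Cd79a had 6 islands (147 against 71 reads, 1 passing) and Cd79b had 6 (91 against 33, 2 passing). Ebf1 had 6 islands (81 against 27, 2 passing), Pax5 4 (95 against 25, 2 passing) and Ms4a1 2 (22 against 7, 0 passing). Bank1 still had none, Cr2 still had 1 and Fcer2a still had 2.

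The 6 islands at these loci that covered a start site of any gene had a pooled fold of 1.63 (1.13 to 2.38), and the 12 that covered none had 1.73 (1.25 to 2.44). Over the nuclear islands with fewer than 200 peak reads the same values were 1.42 (1.41 to 1.43) over starts and 1.81 (1.79 to 1.82) elsewhere.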
